A study of Homo sapiens
Mus musculus and Homo sapiens with 2 samples.

Results

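The cells described here are NIH/3T3 cells, an established line of mouse embryonic fibroblasts, that took up 4-thiouridine (S4U) at 200 µM for 6 h before harvest and were treated with iodoacetamide after fixation. They were chosen from the deposited annotation as the cells that the authors called mouse and placed in the group with both S4U and iodoacetamide, and that occur in both count matrices. This gave 425 cells, of 6307 in the mixture of HEK293T and NIH/3T3 cells and 13711 in the whole series. NIH/3T3 cells with iodoacetamide only (559 cells), with S4U only (1060 cells) and with neither (1045 cells) gave the background of the new RNA call, and 913 HEK293T cells, a human embryonic kidney line, had the same 2 treatments as the labelled NIH/3T3 cells. The study used sci-fate, which counts RNA in single cells and separates the molecules made during a labelling window from the older ones. The mixture was made with 1 culture for each line and labelling group as far as the labels show, so the values below are descriptions without a test between groups. Each labelling group had its own reverse transcription barcodes, and 0 of these barcodes occurred in more than 1 group, so the labelling group and the reverse transcription wells cannot be told apart.

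S4U is a uridine analog that growing cells build into new transcripts. Iodoacetamide alters the S4U bases so that they are read as a different base in the cDNA, and a molecule with such changes is counted as new. The share of a gene's RNA that is new after a fixed time depends on how fast its older transcripts are lost and on whether its transcription is steady, and it is known to be low for the long-lived mRNAs of ribosomes and metabolism and high for the short-lived mRNAs of many regulators. Fibroblasts such as NIH/3T3 make extracellular matrix and divide without synchrony in culture, so that the cell cycle is a known source of differences between single cells. Throughout, new RNA is what the authors called newly synthesised. Pre-existing RNA is the whole count minus the new count, which also holds new molecules that were not called. Where RNA is named old below, pre-existing in this sense is meant, and not a measured age.

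The 425 cells held 3085966 whole counts on mouse genes, of which 1021940 were new. A cell held between 855 and 30659 whole counts (median 6695), and between 142 and 10477 new counts (median 2187). Human genes took 0.608% of the counts of these cells. Counts fell on 17359 of the 49585 mouse genes in the table, and 2792 genes reached 200 whole counts. No cell barcode was shared with the A549 cells of the series (0 of 425).

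All 5 genes given as markers of the line were present. Lgals1, which encodes galectin-1, had 3668 whole counts in the 425 cells, the proteoglycan gene Bgn 2930, the splicing regulator gene Mbnl1 2313, S100a11 2056 and the chromatin protein gene Hmga2 1260. A count of Lgals1 was seen in 94.8% of the labelled NIH/3T3 cells (median 6695 mouse counts per cell), against 0.876% of labelled HEK293T cells (median 40 mouse counts per cell), where free or misassigned mouse RNA is the background. Of 18 fibroblast markers, all were detected, and together they took 212.0 of 10000 whole counts, against 209.2, 229.45 and 224.3 in the cells with iodoacetamide only, S4U only and neither. Vim, the gene of the intermediate filament vimentin, led with 19494 counts, while Postn had 1 count, Tagln 2 and Thy1 3, so the last named are close to absent from these cells. Among markers of other cell types, Epcam, Ptprc, Kdr, Adipoq, Myod1 and Sox2 were at 0. The 8 epithelial markers summed to 77 counts, of which Krt14 gave 68, the 6 leukocyte markers to 7, the 4 endothelial markers to 6, the 4 myocyte markers to 2 and the 4 neural markers to 41, all of the last from Tubb3. Of the 4 adipocyte markers only Lpl, which encodes lipoprotein lipase, was seen, with 319 counts. Vimentin and matrix genes were thus abundant, while other-type markers were at 0 or low, with Lpl, Krt14 and Tubb3 the highest of them.

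In these cells 33.1% of mouse counts were new (exact Clopper-Pearson 95% interval 33.06 to 33.17). The intervals given here cover counting error only. The background was 1.08% in cells with iodoacetamide only, 0.785% with S4U only and 0.728% with neither. A large part of the whole counts came from 3 features that were almost all old: Gm42418, annotated as a long intergenic RNA, and the mitochondrial ribosomal RNA genes mt-Rnr1 and mt-Rnr2. They took 25.7% of whole counts, 6.31% of new counts and 35.3% of pre-existing counts. Their new shares were 4.08% for Gm42418, 11.02% for mt-Rnr1 and 11.01% for mt-Rnr2, and all other mouse genes together were 41.8% new (41.69 to 41.82). The label says polyA RNA, and whether other transcripts overlap these features could not be checked without a mouse annotation. Rn18s-rs5, annotated as ribosomal RNA, had 0.630% new counts among 8732 (0.475 to 0.819), against 0.52% in its iodoacetamide-only background, so its new signal was not above background at this depth.

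The new share differed between cells by much more than counting gives. It ran from 12.2% to 58.0%, with quartiles of 30.2% and 35.8% and a median of 33.1%, and its SD over cells was 5.78 percentage points, where counting at each cell's depth gives 0.684. The cells differed first in their intronic reads, which come largely from unspliced RNA. The median cell had 8.08% intronic reads, but 26 cells had over 30%, up to 75.3%. These 26 cells (6.12% of the cells, 4.03 to 8.84) held fewer counts, with a median of 1716, and a mean new share of 46.8% ± 5.33 (SD over cells). The 399 cells up to 30% intronic had a mean of 32.1% ± 4.54, from 12.2% to 45.3%. Across all 425 cells the intronic percentage and the new share had a Pearson correlation of 0.66 and a Spearman correlation of 0.41, and across the 399 cells 0.29 and 0.29. Cells of 1 culture share library and depth effects, so these correlations describe the cells and carry no test.

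The 26 cells rich in intronic reads also had another RNA make-up. Malat1, a long RNA kept in the nucleus, took 170.1 of 10000 whole counts in them, against 33.4 in the other 399 cells. The mitochondrial mt-Rnr2 took 501.4 against 978.1, Gm42418 238.2 against 1081.5, and the translation elongation factor gene Eef1a1 9.86 against 34.1. The matrix mRNAs Col1a1 and Fn1 were higher in these cells, with 33.8 against 8.91 and 49.8 against 21.2, so mRNAs did not all differ in the same direction. Their introns were 54.5% new and their exons 37.8%, against 47.4% and 31.4% in the other cells. The part of this make-up in their higher new share was not tested. Values of variation between cells without these 26 cells are given below for the results they move most.

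**Figure D1:**
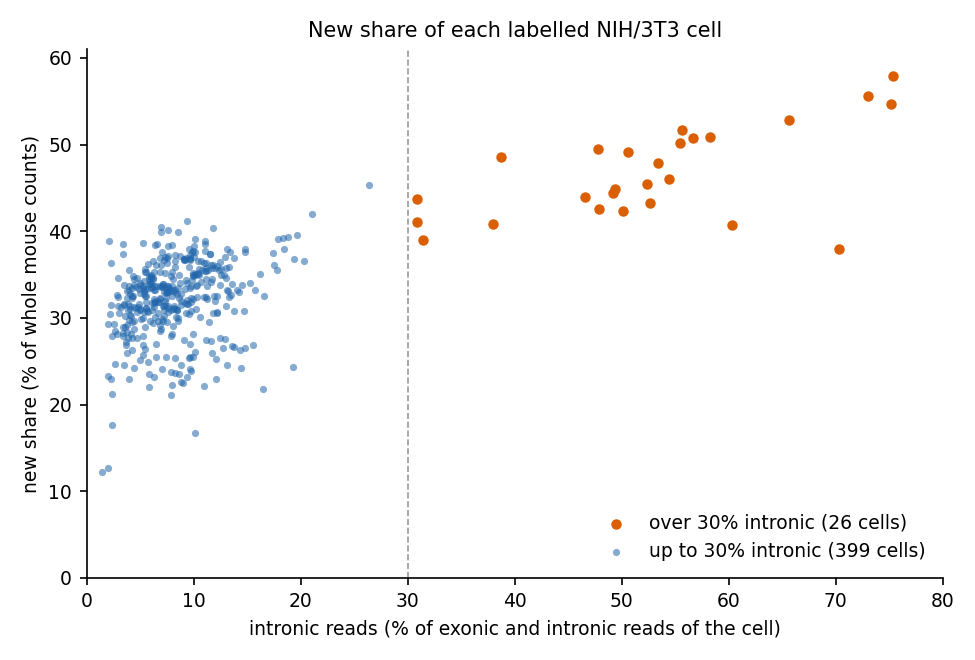
Each point is 1 labelled NIH/3T3 cell, with the percentage of its reads that were intronic on the x axis and the percentage of its whole mouse counts that were new on the y axis; orange marks the 26 cells over 30% intronic (dashed line). Those cells sit between 37.9% and 58.0% new, and the 399 blue cells between 12.2% and 45.3%.

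Other measures moved with the new share as well. The percentage of a cell's whole counts in Gm42418, mt-Rnr1 and mt-Rnr2 had a Pearson correlation of -0.71 with its new share over the 425 cells, and -0.56 over the 399. Since these features are nearly all old, they lower the share where they are abundant, but leaving them out kept the SD over cells at 5.26 percentage points. Exonic and intronic reads were counted apart in the annotation, and their new percentages had a Pearson correlation of 0.63 over the 425 cells. The median cell had 31.6% new among exonic reads and 45.6% among intronic reads. Depth had little relation to the share over all cells (Pearson 0.04, Spearman 0.12), and a stronger one over the 399 (0.33 and 0.32). The component of variance between reverse transcription barcodes was 12.2% of the variance of the new share (424 cells with 87 barcodes), and 21.4% among cells up to 30% intronic. The 2 cells of lowest share, 12.2% and 12.7%, came from the same barcode, whose remaining cell had 17.7%, and without that barcode the SD was 5.58. Part of the cell-to-cell spread thus lay between the wells in which the cells were handled.

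At equal depth new RNA covered more genes than pre-existing RNA. With each fraction thinned to 1000 counts, the median cell showed 777 genes in new RNA and 518 in pre-existing RNA over 361 cells, with 64 shallower cells left out, and new RNA had more genes in 360 of the 361. Without Gm42418, mt-Rnr1 and mt-Rnr2 the medians were 820 and 737 over 350 cells, with 75 left out, and new RNA was ahead in 349. Unthinned, the first set of cells had medians of 1604 and 1832 genes. The wider gene range of new RNA was therefore smaller, but still present, when the 3 abundant old features were set aside.

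Genes differed over more than a 10-fold range of new share. Over the 2792 genes with at least 200 whole counts the median share was 49.4%, the 10th percentile 21.4% and the 90th 60.7%. Shares stopped at 72.4%, and 6 genes were above 70% while 325 were above 60%. The median exact interval reached 5.06 percentage points to either side. The median background of the same genes in iodoacetamide-only cells was 1.07%. Of the 2792 genes, 7 had a background above 5%, and 1 above 10%, Psmb3 with 13.7%, whose share of 35.9% is therefore less certain (both chosen after the values were seen). More abundant genes tended to have lower shares: the Spearman correlation of whole counts and share over the 2792 genes was -0.21, and the median was 44.2% over genes with at least 500 counts and 34.7% with at least 1000. Genes are not independent replicates, and the base content of each transcript's sequenced end also sets how often a new molecule can be seen as new, which was not tested.

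Among protein-coding genes with at least 500 whole counts, those with the highest new shares included genes of chromatin, inflammation, splicing and translation start. H3f3b (ENSMUSG00000016559.14), a gene of the replacement histone H3.3, had 503 new and 223 pre-existing counts, or 69.3% (65.8 to 72.6). Ptgs2 (ENSMUSG00000032487.8), which encodes the inducible prostaglandin enzyme cyclooxygenase-2, had 642 new and 285 pre-existing counts, or 69.3% (66.2 to 72.2). Calm2, a calmodulin gene, had 68.8% and Pcna, which encodes the sliding clamp of DNA replication, 68.7%. The intervals of these genes overlap, so their order is not resolved. Trim59 had 67.2%, the start codon factor gene Eif1 67.2%, the splicing regulator genes Ptbp3, Srsf7 and Tra2b 66.1%, 65.8% and 65.7%, Eif1a 65.4%, the RNA-binding protein gene Qk 65.3% and Azin1, which encodes an inhibitor of antizyme in polyamine control, 65.0%. In single cells the new molecules of these genes often came without old ones. For H3f3b, 152 of the 425 cells had new counts only, 52 pre-existing only, 101 both and 120 neither. The median cell held 1 new and 0 pre-existing counts of it, a depth at which sampling alone leaves many cells without one fraction.

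At the other end of the genes with at least 500 counts, low shares were found for genes of several kinds. Bgn (ENSMUSG00000031375.17), the gene of the matrix proteoglycan biglycan, had 216 new and 2714 pre-existing counts, or 7.37% (6.45 to 8.38). Rpl38 had 9.09%, S100a11 9.73%, Bsg, which encodes the membrane protein basigin, 9.95%, and Ptms 10.01%. The ferritin light chain gene Ftl1 had 10.2%, the cytochrome oxidase subunit gene Cox4i1 10.3%, and the ribosomal protein genes Rps9, Rpl3 and Rps15 10.3%, 10.5% and 10.6%. Their own backgrounds lay between 0.539% and 1.09%. Cmss1 and Zc3h7a were lower still, with 4.66% and 6.99%, and both are uncertain, since overlap with other transcripts could not be checked and no source used here gives the strand setting of the counting. For Bgn, 258 cells held pre-existing counts only and 2 held new counts only.

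The most abundant protein-coding mRNAs were mostly counted as pre-existing. Pabpc1, the gene of the poly(A)-binding protein, had 20744 whole counts and 24.5% new, and the median cell held 11 new and 33 pre-existing molecules, with at most 52 and 136. Vim had 19494 counts and 35.7% new, with a median of 15 new and 28 pre-existing molecules per cell. The actin gene Actb had 15050 counts and 22.3% new, the collagen gene Col1a2 13085 and 21.5%, Eef1a1 10376 and 19.7%, and the chaperone gene Hsp90ab1 9222 and 31.6%. The mitochondrially encoded mRNAs mt-Nd1, mt-Cytb, mt-Nd4 and mt-Nd2 had 43.9%, 41.0%, 39.6% and 35.0%. Ribosomal protein and other genes with near-identical pseudogenes, such as Actb and Eef1a1, are uncertain to the extent that the authors' counting could split or pool their reads.

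Gene groups fell along the same axis, from old to new. Over all 2792 genes, 48% had a share above 50%, against which the counts below can be read. At the old end, ribosomal protein genes had a median of 17.4% over the 76 of 89 members that reached 200 counts, with 0 above 50%. Their range was 8.63% (Rpl36) to 49.4% (Rpl7l1), and Rpl15 had 46.9%, while the next highest, Rpl13a, had 34.1%. Nuclear genes of the respiratory chain followed with 19.1% (36 of 45 members, 0 above 50%), from Ndufa1 with 9.95% to Ndufs1 with 40.3%. Glycolysis genes had 21.1% (9 of 19), where the pyruvate kinase gene Pkm had 13.2% and only the glucose transporter gene Slc2a1 was above 50%, with 54.5%. The mitochondrially encoded mRNAs, whose proteins join the same respiratory chain, had a higher median of 41.0% over 7 of 13 members, from mt-Nd6 with 26.3% to mt-Co1 with 44.3%. Each of the mitochondrial mRNAs other than mt-Nd6 was at 35.0% or more, where among the nuclear genes Ndufs1 and Uqcrc2, with 37.7%, were as high.

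Genes of the secretory and contractile fibroblast were also mainly old. Matrix and matrix-remodelling genes had a median of 24.8% (22 of 40 members, 2 above 50%). The lowest members were Bgn with 7.37%, fibronectin Fn1 14.3%, Sparc 16.6% and Col1a1 16.8%. Higher in the list, Lox, which cross-links collagen, had 34.6%, the laminin gene Lamc1 45.6%, the versican gene Vcan 50.4% and the collagen lysyl hydroxylase gene Plod2 55.7%. Endoplasmic reticulum chaperone genes had 25.8% (12 of 21), but split into a low set from Pdia4 with 17.3% to Canx with 26.4% and a higher set of Dnajb11, Atf4, Manf, Hspa5 and Serp1 from 40.5% to 53.3%. The higher set holds Hspa5, the main stress-induced chaperone of that compartment, but also Atf4, which encodes a transcription factor and not a chaperone. Actin cytoskeleton genes had 33.6% (26 of 34), from the thymosin gene Tmsb10 with 11.8% to Anln, an actin-binding protein of cell division, with 60.3%. Integrin and adhesion genes had 40.9% (16 of 22), from Tln1 with 28.7% to the hyaluronan receptor gene Cd44 with 63.2%.

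Housekeeping machines for protein making and turnover lay between. Translation factor genes had a median of 32.6% (31 of 31 members), and ran from the elongation factor gene Eef1b2 with 15.5% to Eif1 with 67.2%. The elongation factor genes Eef1b2, Eef1g, Eef2, Eef1a1 and Eef1d were at 15.5% to 25.8%, while initiation factor genes covered nearly the whole range, from Eif3f with 20.7% and Eif3h with 21.1% to Eif4a2 with 66.1% and Eif1. Proteasome genes had 35.5% (30 of 31), from Psmd13 with 18.5% to Psmc6 with 51.1%. Heat shock and cytosolic chaperone genes had 43.8% (18 of 25), from Cryab with 20.0% to Dnaja1 with 62.0%. The metallothionein genes Mt1 and Mt2 had 31.8% and 45.5%, the ferritin genes Ftl1 and Fth1 10.2% and 22.3%, and the transferrin receptor gene Tfrc 51.8%.

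At the new end stood genes of transcription, ubiquitin control and signalling. Transcription and architectural factor genes had a median of 56.4% (28 of 34 members, 22 above 50%), from Hmgb1 with 28.3% to Twist1 with 66.1%. Ubiquitin ligase and deubiquitinase genes had 56.2% (22 of 28, 19 above 50%), from Nedd4 with 27.3% to Rnf4 with 68.2%. Kinase and GTPase genes had 55.2% (26 of 39, 19 above 50%), from Akt1 with 30.5% to the receptor gene Bmpr2 with 62.6%. Genes of nuclear import and export had 53.5% (20 of 24, 11 above 50%), from Ipo9 with 30.7% to Ipo7 with 63.9%. Their count above 50% was near the 48% of all genes. SR and hnRNP splicing factor genes had 49.5% (37 of 40, 18 above 50%), close to all genes, from Hnrnpa1 with 18.9% to Srsf7 with 65.8%. Within that list the SR protein genes Srsf1, Srsf2, Srsf3, Srsf6, Srsf7, Srsf10 and Srsf11 lay between 51.5% and 65.8%, but Srsf9, which is not on it, had 44.8%.

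S-phase, G2/M and cholesterol synthesis genes were newer than the median gene too, while the other lists given here were small or mixed. S-phase genes had 56.5% (22 of 44 members, 15 above 50%), from the thymidylate synthase gene Tyms with 37.6% to Pcna with 68.7%. G2/M genes had 55.3% (39 of 56, 29 above 50%), from Anp32e with 43.2% to G2e3 with 65.2%. Cholesterol and fatty acid synthesis genes had 54.0% (18 of 30, 12 above 50%), from the farnesyl diphosphate synthase gene Fdps with 33.5% to Acsl3 with 66.7%. Secreted growth factor and cytokine genes had 58.1% over 8 of 29 members, from osteopontin, Spp1, with 25.5% to the chemokine gene Ccl2 with 72.4%, the highest share of the 2792 genes. That median rests on genes of few counts, and was 31.3% over members with at least 500 counts, where all genes had 44.2%. Of 28 immediate early genes 4 reached 200 counts, among them Jun with 43.5% and Myc with 68.6%. Of 19 YAP/TEAD target genes 6 did, from Axl with 27.1% to Cyr61 with 66.0%. Their median was 55.4%, but 42.1% over members with at least 500 counts. Among 20 long noncoding RNA genes 6 did, with a median of 48.7%, from Malat1 with 30.1% to Snhg5 with 55.1%. Of 110 histone genes 10 did, with a median of 33.7%, from H2afj with 6.47% to H3f3b with 69.3%, but most replication-dependent histone mRNAs lack a poly(A) tail and are poorly caught by priming on it.

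**Figure D2:**
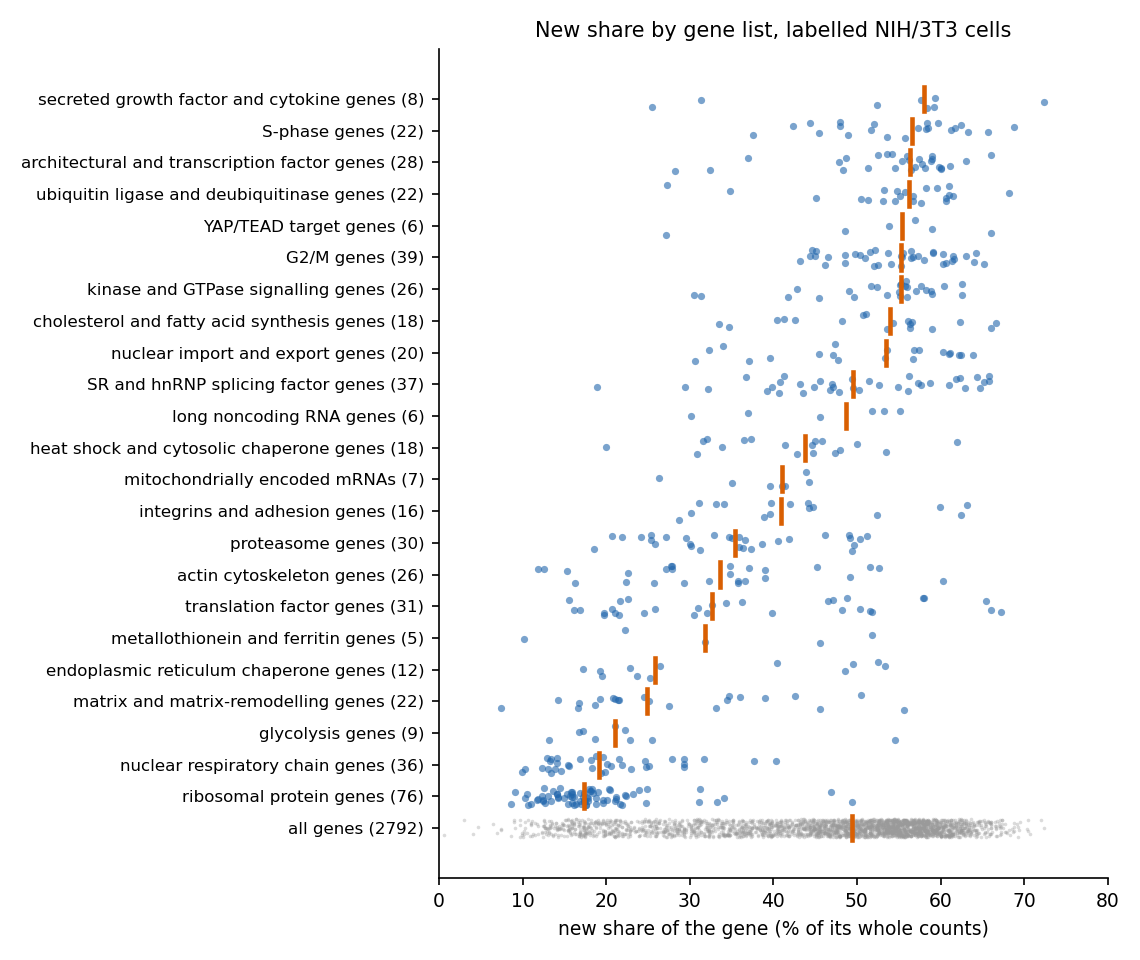
Each point is 1 gene with at least 200 whole counts in the 425 labelled NIH/3T3 cells, placed by the percentage of its counts that were new, in rows by gene list (number of genes in brackets), with the median as an orange bar. Medians run from 17.4% for ribosomal protein genes to 58.1% for secreted growth factor genes, and the median of all 2792 genes is 49.4%; the last list has a median of 31.3% at 500 counts.

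Cell-to-cell variation was measured in new and pre-existing RNA as excess variation. For each gene, the count expected in a cell was set by the cell's total of that fraction. Squared deviations from it were summed over cells, less the variance that counting gives, and divided by the sum of squared expected counts. Deep cells therefore weigh more than shallow ones in this value. A value of 1 means that the SD beyond counting equals the mean, and values below 0 arise where counting noise is overestimated by chance. Of the 2792 genes, 831 had at least 200 counts in both fractions. Their median excess variation was 0.125 in new RNA and 0.141 in pre-existing RNA. The 10th to 90th percentiles were 0.0119 to 0.425 in new and 0.0297 to 0.409 in pre-existing RNA. New RNA was the more variable for 394 of the 831 genes (47.4%), and this share was 54.8% when both fractions were scaled to the cell's whole total, and 61.6% with no scaling, so which fraction was the more variable depended on the scaling. The shared part, the covariance of the 2 fractions over the product of their means, to which counting noise of separate molecules adds nothing, had a median of 0.0857. How much of the shared part comes from new molecules that were not called, and so counted as pre-existing, was not tested. Across the 831 genes the Spearman correlation of excess variation in new and pre-existing RNA was 0.45 and the Pearson correlation 0.71, over the same 425 cells and with no test.

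The same genes varied in NIH/3T3 cells of the other labelling groups. Excess variation in whole RNA of the labelled cells had a Spearman correlation over the 831 genes of 0.68 with cells of iodoacetamide only, 0.73 with S4U only and 0.73 with neither. The median was 0.112 in the labelled cells, and 0.114, 0.103 and 0.105 in those groups. Genes with newer RNA were slightly more variable between cells: the Spearman correlation of share with excess variation was 0.11 for new RNA and 0.16 for pre-existing RNA, and 0.31 for whole RNA in cells with neither treatment, whose counts the share did not use. The last is across genes, which are not independent, and abundance moves with both measures.

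Several mitotic genes were among the most variable in both fractions. Ube2c, which encodes the ubiquitin-conjugating enzyme of the anaphase-promoting complex, had excess variation of 2.41 in new RNA and 2.05 in pre-existing RNA, the highest of the 831 genes in each. It had counts in 144 of the 425 cells, up to 11 new and 10 pre-existing molecules in a cell, and its whole RNA gave 2.27 in the labelled cells, 1.63 with iodoacetamide only, 1.60 with S4U only and 1.88 with neither. The kinetochore protein gene Cenpf had 1.28 in new and 1.12 in pre-existing RNA, and the kinetochore motor gene Cenpe 0.985 and 1.35. The spindle genes Hmmr and Prc1 had 1.14 and 1.104 in new RNA and 1.28 and 1.67 in pre-existing RNA. In whole RNA all 5 were at 1.00 or more in every labelling group, so their variation was also seen without label. Without each gene's highest cell these values stayed between 0.973 and 2.44 in new RNA and between 1.13 and 2.08 in pre-existing RNA.

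Over the whole list, G2/M genes had median excess variation of 0.488 in new and 0.504 in pre-existing RNA (18 members measured). Of these, 11 were among the 83 most variable genes in new RNA, above 0.425, and 10 among the 83 most variable in pre-existing RNA, above 0.409, where 9.99% of genes lie by construction. New RNA was the more variable for 9 of the 18, near the 47.4% of all genes. The shared part had a median of 0.476, close to either fraction. S-phase genes varied less, with 0.253 in new and 0.246 in pre-existing RNA over 11 members, of which 0 were among those 83 in new RNA and 1 in pre-existing RNA, Mcm5 with 0.437. Top2a, which encodes the topoisomerase that untangles chromosomes, had 0.843 in new and 0.793 in pre-existing RNA, while Anp32e had 0.0633 and 0.0489 and Rangap1 0.0937 and 0.158, so the list was not uniform.

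Summed over each list, the cell cycle showed in both fractions. G2/M genes took 108.7 of 10000 new counts in the median cell, from 0 in 14 cells to 358.6, and 47.2 of 10000 pre-existing counts, from 0 in 13 cells to 218.6. The 10th and 90th percentiles were 15.8 and 252.7 in new RNA and 7.50 and 109.7 in pre-existing RNA. Levels per 10000 differ between the fractions in part because Gm42418, mt-Rnr1 and mt-Rnr2 fill more of the pre-existing RNA. Over cells, which share library and depth, the new and pre-existing G2/M sums had a Pearson correlation of 0.83 and a Spearman correlation of 0.87 (n = 425 cells), and 0.86 and 0.89 without the 26 cells rich in intronic reads. S-phase sums had 0.66 and 0.69, and 0.72 and 0.71 without them. Between phases, G2/M and S-phase sums had a Pearson correlation of 0.08 in new RNA and 0.24 in pre-existing RNA, and new G2/M with pre-existing S-phase genes gave 0.16 (0.22 over the 399 cells), against 0.07 for new S-phase with pre-existing G2/M genes. These last values are weak and in sparse counts show no order between the phases.

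**Figure D3:**
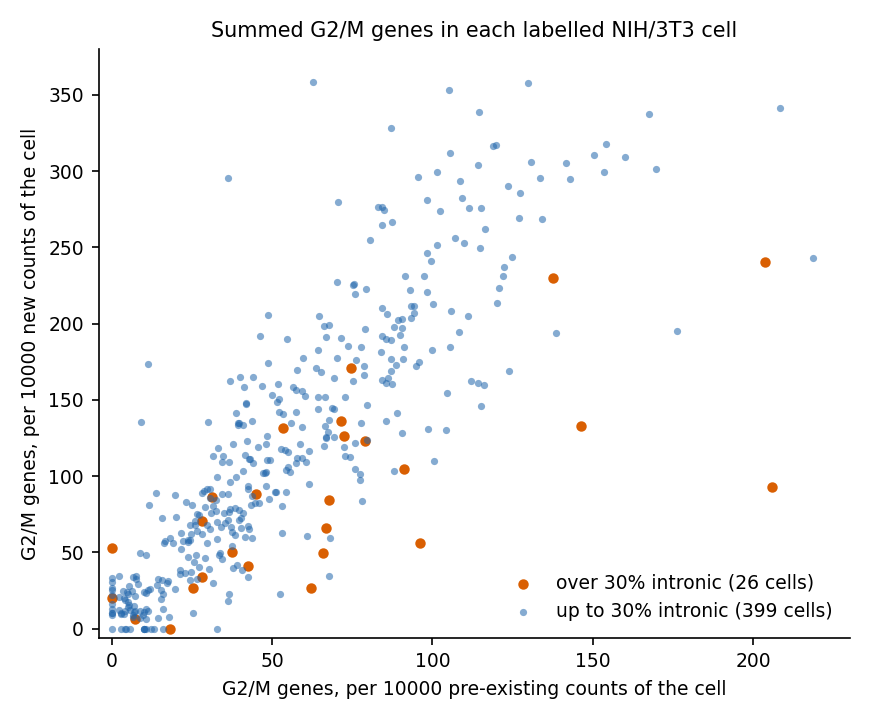
Each point is 1 labelled NIH/3T3 cell, with its summed G2/M genes per 10000 pre-existing counts on the x axis and per 10000 new counts on the y axis; orange marks the 26 cells over 30% intronic. Cells form a continuous cloud from 0 to 358.6 in new RNA, with a Pearson correlation of 0.83.

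Cells with more G2/M RNA tended to have a higher new share. The G2/M sum in whole RNA had a Pearson correlation of 0.37 with the new share of the cell (Spearman 0.48), and 0.52 (0.54) over the 399 cells up to 30% intronic. With the G2/M genes themselves and the 3 abundant old features left out of the share, and those features left out of the total, the values were 0.30 (0.37) and 0.40 (0.43). The G2/M sum also moved with depth (Pearson 0.29 with whole counts), and the part of depth in this relation was not tested.

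Matrix genes differed in how variable they were. Col1a1 had excess variation of 0.930 in new and 0.748 in pre-existing RNA, Fn1 0.775 and 0.748 and Lox 0.653 and 0.406, while Sparc had 0.213 and 0.148. The whole RNA of Fn1 gave 0.747 in labelled cells, and 0.827, 0.697 and 0.714 in cells with iodoacetamide only, S4U only and neither. Of 12 matrix genes measured, 10 were more variable in new RNA, against 47.4% of all genes, and the medians were 0.395 in new and 0.221 in pre-existing RNA. Col5a2 had 0.538 in new and 0.261 in pre-existing RNA and Serpinh1, the gene of a collagen chaperone, 0.369 and 0.123, while Timp2 and Vcan were more variable in pre-existing RNA. Summed over cells, matrix genes in new RNA had a Pearson correlation of -0.34 with new G2/M genes (-0.40 over the 399 cells), so the cells high in one tended to be low in the other. In pre-existing RNA the Pearson correlation was -0.03 over all cells and -0.26 over the 399, while the Spearman correlation was -0.26 and -0.33, so the linear measure alone moved much with the 26 cells rich in intronic reads.

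Of 30 cholesterol and fatty acid synthesis genes 4 had enough counts for a variation value. Hmgcs1, which encodes the synthase ahead of the rate-limiting step of cholesterol synthesis, had 0.851 in new and 0.910 in pre-existing RNA, and its whole RNA had 0.878 in labelled cells, against 0.917, 1.15 and 0.884 in the other groups. Cyp51 had 0.556 in new and 0.350 in pre-existing RNA, Sqle 0.554 and 0.384, and the desaturase gene Scd2 0.265 and 0.324. Summed over the list, the median cell had 51.5 of 10000 new counts and 21.9 of 10000 pre-existing counts, with 10th and 90th percentiles of 20.3 and 101.7 in new RNA. New and pre-existing sums had a Pearson correlation of 0.66 over 425 cells and 0.72 over the 399. Ptgs2, high in new share, was also variable, with 1.09 in new and 0.977 in pre-existing RNA, or 1.099 and 0.974 without its highest cells. It was seen in 269 cells, with up to 26 new molecules in a cell.

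Among the other genes with the highest values, Hmga2 had 0.903 in new and 0.980 in pre-existing RNA, and its whole RNA had 0.961 in labelled cells and 0.632 to 0.737 in the other groups. Maml2, which encodes a coactivator of Notch signalling, had 0.599 in new and 0.981 in pre-existing RNA. Amotl2, a YAP/TEAD target gene, had 0.969 and 0.693, but 0.667 and 0.699 without its highest cells, so its difference between the fractions rested on 1 cell.

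Housekeeping groups varied little. Ribosomal protein genes had medians of 0.0716 in new and 0.0748 in pre-existing RNA (43 members measured), translation factor genes 0.0604 and 0.0647 (24), proteasome genes 0.0610 and 0.0794 (11) and mitochondrially encoded mRNAs 0.0810 and 0.0547 (6, all of them more variable in new RNA, against 47.4% of all genes with the same scaling). Without the cells over 30% intronic the medians in new RNA were 0.0543 for translation factor genes and 0.0537 for proteasome genes. The new and pre-existing sums of ribosomal protein genes still had a Pearson correlation over cells of 0.77, and 0.65 over the 399 cells up to 30% intronic. Nuclear respiratory chain genes had 0.32 and 0.21, a weak relation, at a median of 10 new counts per cell. Cholesterol and fatty acid synthesis genes, at a median of 11, had 0.66 and 0.72, and their sums had 0.230, 0.223 and a shared part of 0.217.

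Some genes differed between the fractions. Higher in pre-existing RNA was Malat1, with 0.783 in new and 1.45 in pre-existing RNA. The median cell held 5 new and 8 pre-existing Malat1 molecules, and the highest 85 and 262. Without its highest cell the values were 0.690 and 1.39, and without the cells over 30% intronic 0.676 and 1.47, while whole RNA ranged from 1.12 to 2.04 over the 4 labelling groups. Trps1, which encodes a GATA-type repressor, had 0.793 in new and 1.63 in pre-existing RNA, and the shared part was 0.995. The remaining genes more variable in pre-existing RNA were Bms1 (0.313 and 0.892), Prc1, Cd44 (0.166 and 0.698), Plpp1 (0.203 and 0.658), Eif4ebp1 (-0.0161 and 0.424) and Ptbp3 (0.107 and 0.536). In whole RNA of cells with neither treatment Bms1 and Ptbp3 had 0.126 and 0.0668, below their values in the pre-existing fraction of the labelled cells.

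More variable in new RNA were Ank3, Col4a5, Alcam, Snd1, Gphn, Igf2bp2, Rpl26 and Nf1. Ank3, which encodes the membrane adaptor ankyrin-G, had 0.965 in new and 0.127 in pre-existing RNA, but 1 cell held 14 of its 252 new counts, and without each fraction's highest cell the values were 0.276 and 0.118. Col4a5, a basement membrane collagen gene, had 1.12 in new and 0.304 in pre-existing RNA, and Alcam, a cell adhesion gene, 1.23 and 0.701, and those values were 1.08 and 0.295, and 1.24 and 0.703, without the highest cells. The cells over 30% intronic held 53 of the 560 whole counts of Col4a5, at 58.5% new. Without those cells Col4a5 fell under the count minimum and has no value, so its difference could not be checked there. Snd1 had 0.659 and 0.136, Gphn, the gene of the scaffold protein gephyrin, 0.534 and 0.0179 (0.406 and -0.0306 without the cells over 30% intronic), Igf2bp2, which encodes an mRNA-binding protein, 0.359 and -0.103, Nf1, which encodes the Ras regulator neurofibromin, 0.409 and -0.0149, and Rpl26 0.430 and 0.00171, while its whole RNA had 0.0405. These 831 genes were searched for the largest differences from 200 counts in each fraction upwards, and how much sampling adds to such differences was not tested.

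**Figure D4:**
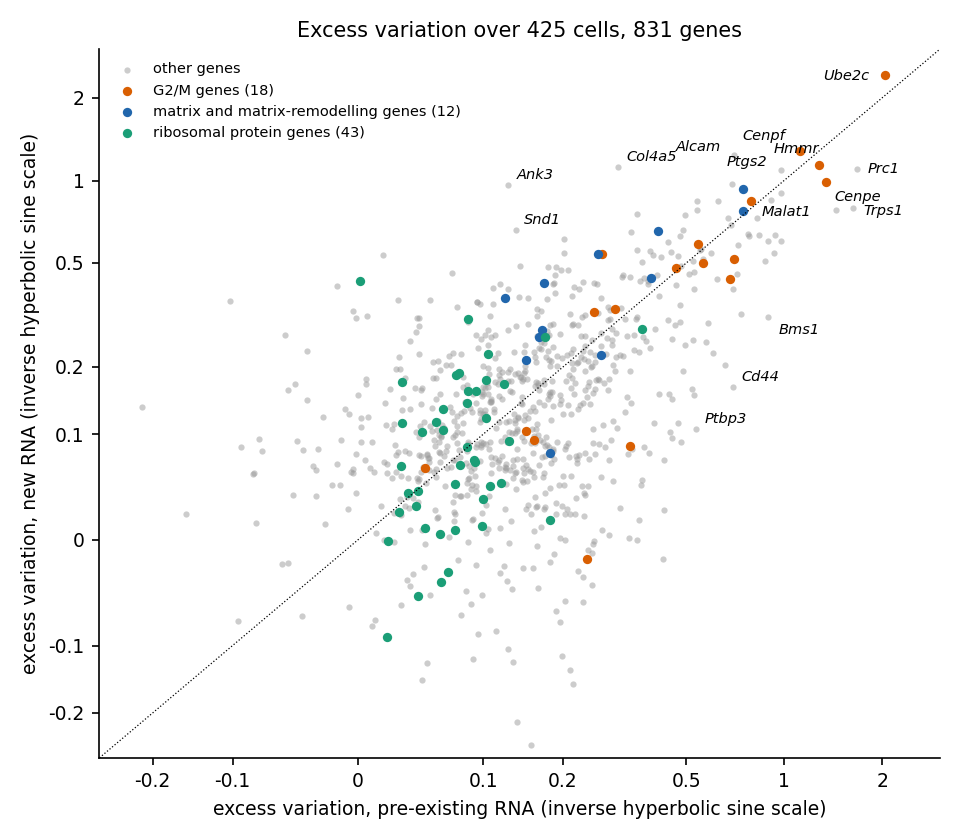
Each point is 1 of 831 genes, with its excess variation over 425 labelled NIH/3T3 cells in pre-existing RNA on the x axis and in new RNA on the y axis (both on an inverse hyperbolic sine scale; the dotted line marks equal values). G2/M genes reach the upper right corner with Ube2c at 2.05 and 2.41, ribosomal protein genes gather at low values, and names mark the genes given in the text.

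The shares were compared with those of labelled HEK293T cells of the same mixture. Pooled over all counts of its own species, NIH/3T3 was 33.1% new and HEK293T 54.7%. Over 2376 protein-coding genes of the same symbol with at least 200 counts in each line, the median share was 49.5% in NIH/3T3 and 64.5% in HEK293T, and the median difference -14.9 percentage points. NIH/3T3 was lower for 1758 of them (74%). Labelled NIH/3T3 cells had 9.38% intronic reads and labelled HEK293T cells 31.7%. Over cells up to 30% intronic (399 NIH/3T3 and 415 HEK293T cells) the difference was -7.43 points, but with fewer cells only 1878 genes reached 200 counts, so cells and genes both changed. Over 678 genes with at least 500 counts in each line it was -3.79 points. The genome, the intronic share and the line differ together and cannot be told apart. Intronic reads were 48.1% new in NIH/3T3 and 80.1% in HEK293T, and exonic reads 31.4% and 42.4%. How completely new molecules were labelled and called in each line was not measured. It cannot be told apart from the genome, the intronic share and the line either.

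In NIH/3T3 3 of the 2376 genes exceeded 70%, against 1039 in HEK293T. Transcription factor genes had a median of 56.8% in NIH/3T3 and 84.1% in HEK293T (22 genes, 20 lower in NIH/3T3), G2/M genes 55.3% and 65.5% (39 genes, 32 lower), and ribosomal protein genes 17.2% and 15.2% (73 genes, 27 lower), where 74% of all genes were lower. The share of G2/M genes lower is thus near that of all genes. The direction also differed along the HEK293T share itself. Genes were sorted by that share and then compared with it. Such sorting alone favours higher NIH/3T3 values at the low end and lower ones at the high end. How much of the pattern the sorting sets was not tested. Genes up to 20% in HEK293T (245 genes) stood at 18.9% in NIH/3T3 and 15.5% in HEK293T. Those over 20% and up to 40% (432) stood at 34.9% and 29.4%, and those over 80% (568) at 57.0% and 83.5%. The 74% is therefore no like baseline for lists of low or high HEK293T share.

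A smaller set of genes had a higher new share in NIH/3T3. Of the 2376 genes, 343 (14.4%) were higher in NIH/3T3 with exact intervals apart, though at the counting level only. Polr2g, a subunit gene of RNA polymerase II, had 65.5% (58.5 to 72.1) in NIH/3T3 and 17.6% (15.0 to 20.6) in HEK293T. Lsm3 had 64.9% and 24.5%, the actin-nucleating Arp2/3 subunit gene Actr2 59.5% and 20.1%, and C1qbp 52.6% and 17.3%. Heat shock and cytosolic chaperone genes had a median of 44.7% in NIH/3T3 and 28.3% in HEK293T, with 2 of 16 lower in NIH/3T3, against 74% of all genes, and glycolysis genes 21.1% and 14.3%, with 1 of 7 lower. Both medians lay at HEK293T shares where genes at large also stood higher in NIH/3T3. In the other direction Cmss1 and Zc3h7a, whose mouse values are uncertain, had 4.66% and 6.99% in NIH/3T3 and 76.4% and 66.3% in HEK293T. Cdk8, a kinase gene of the Mediator complex, had 30.5% and 86.4%, and the ubiquitin ligase gene Nedd4 27.3% and 76.7%. Without replicate cultures, none of these differences has a check against variation between cultures.

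**Figure D5:**
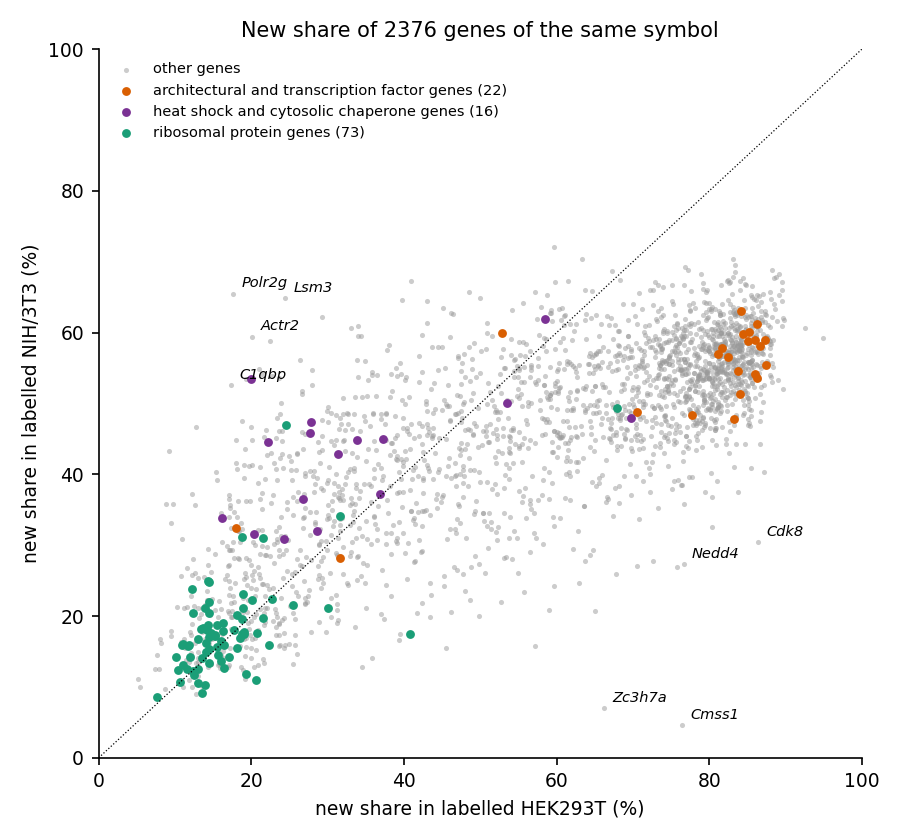
Each point is 1 of 2376 genes of the same symbol, with its new share in labelled HEK293T cells on the x axis and in labelled NIH/3T3 cells on the y axis (percent of whole counts; the dotted line marks equal shares). NIH/3T3 shares level off near 70% while HEK293T shares reach 94.9%, and heat shock genes lie mostly above the line.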

How the data were processed

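RNA of fixed cells was counted by combinatorial indexing with primers on the poly(A) tail, per the labels' protocols. The submitters' processing notes name the builds hg19 and mm10 and, in no stated order, Picard 1.105, SAMtools 1.3, STAR 2.5.2b and Trim Galore 0.4.1. The label of the mixture also names dexamethasone, which the protocol gives to A549 cells only. No source used here says how duplicates were collapsed or how new molecules were called. The authors deposited raw counts per gene and cell, for whole and for new RNA, and per the file headers exon and intron read counts and a fraction of new RNA per cell whose denominator is not stated (median 30.8% in the labelled NIH/3T3 cells). Cells are the authors' own calls; 100 cells without a labelling group were not used, cells called as both species (46 of 1384 with both treatments, 3.32%) were left out, and doublets within a species were not called. Pre-existing RNA was whole minus new counts. Calculations used Python 3.11.15, numpy 2.4.6, scipy 1.17.1 and pandas 2.3.3, and the variation measure was tested on simulated data. There both fractions shared the same variation, no molecule was miscalled and only medians over sets of genes were checked. Differences between the fractions for single genes were thus not tested by it. Gene shares need 200 whole counts and variation 200 counts in each fraction.

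The cells, gene lists and rule for named genes were chosen with earlier results of these data known. The rule named the 12 highest and 12 lowest protein-coding genes by share with at least 500 counts, the 10 most variable in each fraction, the 8 largest differences in each direction, the 10 most abundant genes, and the ends of each list; other list members were chosen after their values were seen. Genes named in the comparison with HEK293T are among the 8 largest differences in each direction.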

Additional observations from a re-analysis of the deposited data

How the results depend on the processing

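No paired analysis was possible because each line and labelling group was 1 culture. The pooled new share of 33.1% was 42.0% over protein-coding genes, 36.9% without mitochondrially encoded genes, 41.8% without Gm42418, mt-Rnr1 and mt-Rnr2, 33.06% as a median over cells and with at least 3000 counts per cell, 32.9% without cells over 30% intronic and 32.0% after subtracting the iodoacetamide-only background. The median over genes of 49.4% was 44.2% at 500 counts and 34.7% at 1000. The SD over cells of 5.78 was 4.19 with at least 3000 counts per cell, 4.85 with cells thinned to 2000 counts and 4.54 without cells over 30% intronic. The median excess variation of new RNA, 0.125, was 0.139 with the size factor from the whole total, 0.538 with none, 0.155 at 100 counts in each fraction and 0.0907 at 500; that of pre-existing RNA, 0.141, was 0.484 with no size factor, 0.167 at 100 counts and 0.108 at 500; and the shared part, 0.0857, was 0.439, 0.105 and 0.0660 under the same settings. The percentage of genes more variable in new RNA, 47.4%, was 54.8% with the whole-total size factor and 61.6% with none. The median difference from HEK293T of -14.9 points was -3.79 at 500 counts and -7.43 without cells over 30% intronic. The causes of these shifts were not tested; a higher count minimum keeps fewer and more abundant genes, and without a size factor depth enters the variation. Among alternatives for the main values listed so far, 25 stayed within their tolerance and 26 moved. The tolerances differed between values. The pooled share of 33.1% counted as moved at 33.06%, while the median over genes of 49.4% counted as staying at 48.1% after background subtraction. These counts thus do not measure the size of the shifts. Of values for single genes, lists and correlations, 459 stayed within their tolerance (10% for list medians) and 36 moved. Many of these could move little, since the cells over 30% intronic held only 56802 of 3085966 whole counts. Alternatives that leave out cells over 30% intronic, the abundant old features, a gene's highest cell or the lowest wells were chosen after seeing the data. One culture per group leaves no check between cultures, and 200 counts over 425 cells limits each single-gene variation value, whose own error was not estimated.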
